A study of Mus musculus with 18 samples.

Results

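The comparison described here sets C2C12 mouse myoblasts depleted of ERK3 against control myoblasts on day 2 in differentiation medium (DM2). It rests on 6 of the 18 RNA-seq libraries of the series, chosen by their labels: 3 of a stable line transfected with the plasmid px459-Mapk6sg and 3 of a line that received a control plasmid. Both lines came from C2C12, an established myoblast line, and no wild-type untransfected cells are among the 6. px459 is a plasmid that carries Cas9 and a guide RNA, here aimed at Mapk6, the gene of ERK3. The same lines in growth medium (GM), and an MK5-depleted line (px459-Mk5sg) at DM2, serve below as points of comparison. The labels do not say whether the libraries of a group are separate cultures or separate clones, so p-values measure only the spread between these samples, which may be technical. Each of the 6 had between 17.9 and 21.3 M reads counted in genes (M, 1e6), and 13939 genes were abundant enough to be tested.

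ERK3 is an atypical MAP kinase with a short-lived protein, and it binds and activates the kinase MK5. Myoblasts that lose their growth factors leave the cell cycle, switch on myogenin, fuse through the membrane proteins myomaker and myomerger, and build sarcomeres, calcium stores and acetylcholine receptor clusters. FoxO transcription factors act in muscle on genes of protein breakdown, growth arrest and fuel choice, and the title of the series links ERK3 and MK5 to FoxO3.

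At DM2 the ERK3-depleted cells held less RNA of many fusion, calcium-handling and synapse genes, and more RNA of genes of DNA replication and mitosis, than control cells. Few of the calcium-handling calls and a minority of the fusion calls held in the 2 further analyses described below. Myomaker (Mymk), a fusion protein, was 3.62-fold lower, the proliferation marker Mki67 was 2.37-fold higher, and the fuel-switch kinase gene Pdk4 was 2.36-fold lower. Mki67 and Pdk4 kept their calls in those 2 analyses, and Mymk kept its call in neither. A gene was called where its adjusted p in edgeR's quasi-likelihood test lay under 0.05, and 7776 of the 13939 genes (55.8%) were called. Of these, 3905 were higher (28% of all tested) and 3871 lower (27.8%) in the depleted cells. A change of over 2-fold was found for 1059 of the higher and 688 of the lower genes. In 8403 genes (60.3%) the 3 depleted and 3 control libraries did not overlap. With so large a share called, a count within a gene list is read below against these shares.

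The 3 depleted DM2 libraries stood apart from each other in ways that bear on every result. Reads that matched no gene's exons, called reads outside genes here, can lie in introns as well as between genes. They made up 5.55, 7.73 and 3.79% of reads in depleted libraries 1, 2 and 3, against 2.44, 2.65 and 3.05% in control libraries 1, 2 and 3. Transcripts of the mitochondrial genome took 3.39, 5.51 and 2.27% of gene counts in the depleted libraries and 1.04 to 1.42% in the controls. Depleted library 2 was the highest and library 3 the lowest of the 3 in both measures, and library 3 also lay nearest to the controls in its expression profile. Every result was therefore computed in 2 further ways. One left out depleted libraries 1 and 2, so that library 3 alone stood for the group and was assumed to vary like the other groups. The other kept all libraries and added the percentage of reads outside genes as a covariate. The first called 3257 genes (1698 higher, 1559 lower) and the second 2705 (1449 higher, 1256 lower). Of the 7776 genes, 3127 were called in the same direction with library 3 alone and 2499 with the covariate, and none in the opposite direction in either. List counts from these 2 analyses are to be read against these smaller totals, and not against the shares of the main fit. What part the reads outside genes play in the differences was not tested.

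**Figure D1:**
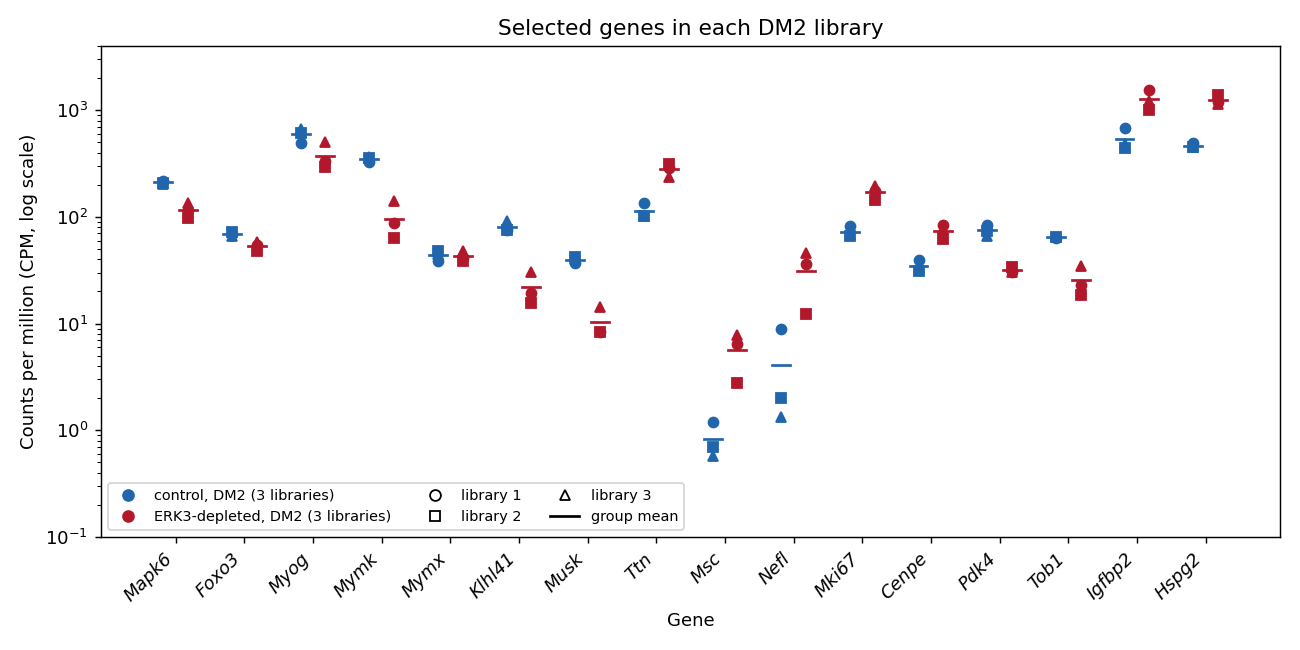
CPM (counts per 1e6 gene counts, log scale) of 16 genes in each of the 3 control (blue) and 3 ERK3-depleted (red) libraries at DM2; symbols mark the library number and short lines the group means. Mymk, Klhl41, Musk and Pdk4 lie lower in every depleted library than in any control library, Msc, Nefl, Mki67 and Hspg2 higher, and Myog and Mymx overlap.

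The sequences below show motifs found by string search in front of some of these genes, printed so that the values can be set beside them. They are reference promoter sequence of the mouse from RefSeq (build GRCm38.p6), read in the direction of the gene, and each ends before the annotated start. In the first 3, capitals mark CAGCTG, an E-box form that MyoD and myogenin can bind; in the fourth they mark a match to the MEF2 motif.
Klhl41 (chr2:69669963-69670028, plus strand): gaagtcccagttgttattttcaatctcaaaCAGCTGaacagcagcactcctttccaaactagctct
Tmem182 (chr1:40805530-40805595, plus strand): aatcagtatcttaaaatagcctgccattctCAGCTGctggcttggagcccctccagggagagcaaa
Musk (chr4:58285864-58285929, plus strand): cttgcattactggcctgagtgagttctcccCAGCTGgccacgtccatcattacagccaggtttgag
Casq2 (chr3:102086316-102086385, plus strand): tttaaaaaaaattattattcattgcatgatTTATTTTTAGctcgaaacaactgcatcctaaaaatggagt
The next 2 come from genes of dividing cells. Capitals mark TTTGAA, the cell cycle genes homology region (CHR), in Mki67, and CCAAT, the motif of NF-Y, in Cenpe. The Mki67 stretch also holds a CCAAT and a further TTTGAA, both left in lower case.
Mki67 (chr7:135716460-135716525, minus strand): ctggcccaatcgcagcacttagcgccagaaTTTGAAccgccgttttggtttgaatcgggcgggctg
Cenpe (chr3:135212521-135212562, plus strand): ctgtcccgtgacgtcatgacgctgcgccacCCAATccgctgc

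Motifs were searched on both strands in the 300 bases from 250 before to 50 after the start. CAGCTG, which is also counted among E-boxes of the form CANNTG, occurs in 16.1% of all 27025 promoters of the table. It occurs in 7 of the 18 calcium-handling and 3 of the 20 fusion promoters that could be matched. It also occurs in 7 of 16 thin filament promoters, a list with 9 genes called higher and 2 lower, and in 1 of 13 promoters of myogenic regulators. TTTGAA occurs in 18.1% of all promoters and in 30 of 40 mitosis promoters, and CCAAT in 37.9% of all promoters and in 31 of those 40. Over all called genes the shares barely differed: TTTGAA stood in 12% of the promoters of higher genes and 10.03% of those of lower genes, against 11.5% of tested genes. For CAGCTG these shares were 14.2, 15.7 and 15.4%. A match is a string of letters and does not show that a factor binds there.

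Mapk6 (chr9:75369062-75410005, minus strand, GRCm38) is the gene the guide targets. In counts per 1e6 (CPM) it stood at 116, 96.8 and 136 in depleted libraries 1, 2 and 3 and at 219, 207 and 204 in control libraries 1, 2 and 3. No depleted library reached a control library, and the log2 fold change was -0.86 ± 0.12 (SE, adjusted p = 2.2e-05). Cas9 cuts change DNA and need not remove the RNA, so RNA counts do not measure the loss of the protein. With library 3 alone the log2 fold change was -0.63 and with the covariate -0.54, and both were called.

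Kinases around ERK3 moved in both directions. Of the 23 tested genes in a list of ERK3, MK5 and their partners, 9 were called higher and 6 lower, with a median log2 fold change of 0.09 (0.01 over all genes). Mapkapk5, the gene of MK5, had 0.723, 1.05 and 0.856 CPM in depleted and 1.55, 1.02 and 1.34 CPM in control libraries. These low values overlapped, the gene was not called (adjusted p = 0.075), and its exons overlap those of Adam1a on the same strand. RSEM counts put its log2 fold change at 0.30, in the opposite direction. Mapk12, the gene of p38 gamma, which is abundant in muscle, rose from 31.2, 31.96 and 32.2 CPM to 71.7, 79.0 and 50.2 CPM (log2 fold change 1.07 ± 0.12, adjusted p = 5.1e-06). Its relative Mapk11 (p38 beta) rose by 0.76 on the log2 scale. Mapk4, which encodes the ERK3-like kinase ERK4, rose from 2.174, 1.44 and 1.34 CPM to 3.17, 2.73 and 4.28 CPM (log2 fold change 1.04 ± 0.30). All 3 of these genes were also called with library 3 alone and with the covariate. Hspb1, whose small heat shock protein is a substrate of MK5 and related kinases, rose by 0.93.

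The markers of the labelled cells bear on how far each group had differentiated. Myoblast markers (Myod1, Myf5, Des, Cdh15, Vcam1 and Pax7) summed to 2823 to 3223 CPM in depleted and 2070 to 2191 CPM in control libraries. Des, the gene of the intermediate filament desmin, carried most of that sum, at 2508, 2242 and 2091 CPM against 1452, 1265 and 1333 CPM. Of the 6 markers 2 were called higher and 2 lower, so the higher sum rests on Des and not on the markers as a set. Myod1, the master regulator of the lineage, did not differ beyond the spread, at 183, 188 and 182 CPM against 183, 218 and 201 CPM (adjusted p = 0.43). Vcam1, an adhesion protein of myoblasts, fell by 0.92 on the log2 scale. Pax7 was called higher (0.57, adjusted p = 0.046) and Myf5 lower (-0.44, adjusted p = 0.040) by a narrow margin. The call of Pax7 was lost without depleted library 2 or 3 or control library 1 or 2 (0.29 to 0.64), and that of Myf5 without depleted library 2 or control library 1 or 2 (-0.22 to -0.44).

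Myotube markers (Myog, Mymk, Mymx, Ckm, Myh3, Acta1, Tnnc1 and Tnnt3) summed to 1544 to 2349 CPM in depleted and 2672 to 3096 CPM in control libraries, so the groups did not overlap. In bulk RNA, fewer cells of a type and less RNA per cell cannot be told apart. Only 2 of the 8 markers, Mymk and Ckm, were called lower. Myog, the gene of myogenin, had 333, 294 and 499 CPM in depleted and 493, 615 and 670 CPM in control libraries, an overlap of 1 library (log2 fold change -0.66 ± 0.32, adjusted p = 0.091). It was called without depleted library 3 (-0.93, adjusted p = 0.046), while with the covariate its value was 0.03. Myh3, the embryonic myosin heavy chain, was 224, 198 and 384 CPM against 411, 396 and 437 CPM and was not called (adjusted p = 0.14), except without depleted library 3 (-0.99, adjusted p = 0.040). Acta1, skeletal actin, was likewise lower in every depleted library but not called (-0.60, adjusted p = 0.090); it passed with the replicate number as a block (adjusted p = 0.042). Ckm, muscle creatine kinase, was called (-0.66, adjusted p = 0.028), but the call was lost without depleted library 1 or 2 or control library 2 or 3 (-0.51 to -0.62) and in DESeq2 (adjusted p = 0.080).

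The RNAs of the 2 membrane proteins that drive fusion gave unlike values. Mymk (chr2:27061636-27072179, minus strand) had 86.9, 63.0 and 139 CPM in depleted libraries and 327, 354 and 368 CPM in control libraries. Every depleted value lay under every control value, the log2 fold change was -1.86 ± 0.40 (adjusted p = 0.0013), and the call held with any one library left out. With library 3 alone the log2 fold change was -1.33 (adjusted p = 0.14), and with the covariate -0.76 (adjusted p = 0.30). Mymx, which encodes myomerger, had 41.6, 38.9 and 48.0 CPM against 38.6, 47.4 and 44.5 CPM, and its groups overlapped fully (log2 fold change -0.02 ± 0.16, adjusted p = 0.92). Mymx is a short gene, and with the trend over gene length and GC content removed it was called lower (-0.53, adjusted p = 0.022).

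Over the 25 tested genes of the fusion list 14 were called lower and 2 higher, with a median log2 fold change of -0.33. Tmem182, a muscle membrane protein whose promoter is printed above, fell from 26.5, 26.3 and 28.7 CPM to 4.95, 4.40 and 11.6 CPM (-1.95 ± 0.36, adjusted p = 0.00023). Mgll, a lipase gene of this list, rose by 0.99 and was called under every alternative. With library 3 alone 5 fusion genes were called lower and 1 higher, and with the covariate 4 and 1. Tmem182 was called under neither of these 2 (-1.22 and -0.96).

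Myogenic regulators leaned the same way, with 10 of 20 called lower and 3 higher (median -0.38), 5 and 1 with library 3 alone, and 3 and 0 with the covariate. Tead4, a TEAD factor of muscle genes, fell from 41.0, 47.5 and 53.9 CPM to 21, 20.2 and 27.9 CPM (-1.04 ± 0.18, adjusted p = 0.00013). Mef2d, a MEF2 factor of differentiating muscle, fell by 0.78 and Rbm24, an RNA-binding splicing regulator of muscle, by 0.87. Mef2c, another MEF2 gene, went up from 3.04, 1.62 and 2.15 CPM to 8.18, 5.40 and 4.57 CPM (1.41 ± 0.38, adjusted p = 0.0044). Mef2d was called both with library 3 alone and with the covariate, Tead4 only with library 3 alone, and Rbm24 and Mef2c with neither. Rbm24 also missed the threshold in DESeq2 (adjusted p = 0.053).

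The list of repressors of myogenesis had 8 of 17 genes higher and 5 lower (median 0.38). Msc, whose product musculin blocks MyoD by binding its partners, stood at 6.45, 2.79 and 7.76 CPM in depleted and 1.21, 0.696 and 0.574 CPM in control libraries. The lowest depleted library still lay above the highest control, and the log2 fold change was 2.78 ± 0.40 (adjusted p = 2.7e-05). Hey1, a Notch target repressor, rose by 1.0, and both genes were called with library 3 alone and with the covariate. Id2, an inhibitor of basic helix-loop-helix factors, fell by 0.51, and Bhlhe40, a repressor of that class, by 0.54, though neither was called with library 3 alone or with the covariate. From library 3 alone, 3 of the 17 were higher and 1 lower.

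**Figure D2:**
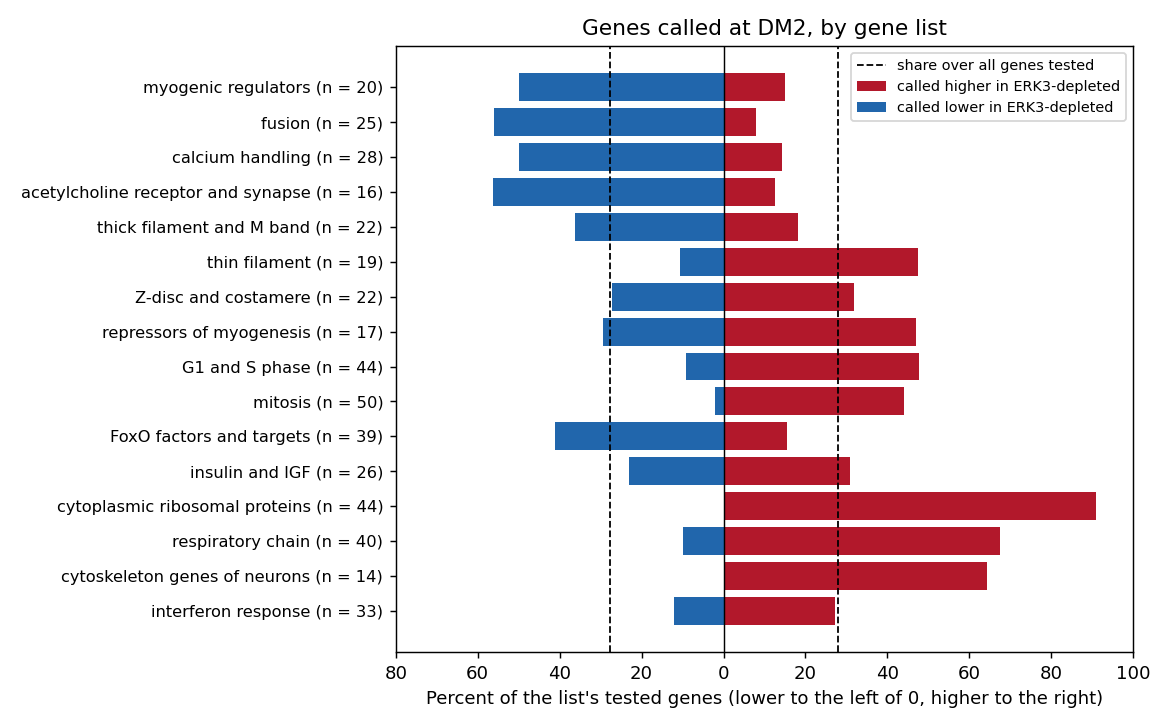
Percent of the tested genes of 16 gene lists that were called higher (red, right of 0) or lower (blue, left of 0) in ERK3-depleted cells at DM2; dashed lines mark the shares over all 13939 genes, 28% higher and 27.8% lower. Fusion, calcium-handling and synapse lists extend beyond the line on the lower side, and mitosis, ribosomal and neuronal cytoskeleton lists on the higher side.

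Sarcomere genes did not move as a block. Thick filament and M band genes were called lower in 8 and higher in 4 of 22 (median -0.36), and thin filament genes lower in 2 and higher in 9 of 19 (median 0.20). With the trend over gene length and GC content removed, thin filament genes were lower in 5 and higher in 8 (median 0.07). Thick filament genes were then lower in 8 and higher in 3 (median -0.44). Z-disc genes were lower in 6 and higher in 7 of 22 (27.3 and 31.8%, median -0.12), near the shares over all genes. With the covariate the thick filament list turned to 1 lower and 4 higher (median 0.24) and the Z-disc list to 1 lower and 5 higher (median 0.23). With library 3 alone the thick filament list held 3 lower and 3 higher genes. Among thick filament genes, Myom1, which cross-links myosin at the M band, fell from 22.4, 18.9 and 20.2 CPM to 8.35, 7.63 and 11.1 CPM (-1.18 ± 0.21). The adult fast myosin gene Myh2 fell by 2.25 and the myosin-binding protein gene Mybpc1 by 1.79, both at under 4 CPM in every library. With the covariate neither Myom1 (-0.64) nor Myh2 (-1.50) was called. Ttn, the giant spring protein titin, went the other way, from 134, 102 and 102 CPM to 289, 311 and 238 CPM (1.31 ± 0.23, adjusted p = 0.00017). Ttn has by far the longest transcript of these genes, with 116825 bases of exons. Without the length and GC trend its log2 fold change was -0.01 (adjusted p = 0.98). The 1392 longest genes, with a median of 12088.5 bases, had a median log2 fold change of -0.23, opposite in direction to Ttn. The longest of them had 123179 bases, so the corrected value of Ttn depends on the far end of the fitted curve. Whether the rise of Ttn follows length or GC content was therefore not tested.

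In the thin filament, Actc1, cardiac actin of embryonic muscle, fell from 457, 574 and 605 CPM to 211, 167 and 377 CPM (-1.12 ± 0.28, adjusted p = 0.0034). Lmod2, which nucleates actin filaments, fell by 1.58. Tnnt1, slow troponin T, rose from 191, 170 and 185 CPM to 348, 332 and 292 CPM (0.83 ± 0.20). Lmod2 was called with library 3 alone (Actc1 and Tnnt1 were not), and none of the 3 with the covariate. At the Z-disc, Pdlim3, which binds alpha-actinin, rose from 100.8, 27.7 and 27.8 CPM to 321, 149 and 272 CPM (2.25 ± 0.49, adjusted p = 0.0013); control library 1 stood above the other 2 controls but under every depleted library. Pdlim3 and Des were called under both further analyses.

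Of 15 factors that assemble sarcomeres 5 were lower and 3 higher (median -0.07), shares of 33.3% and 20% that lie near those over all genes. Klhl41 (chr2:69670120-69684230, plus strand), which stabilises nebulin, fell from 75.1, 75.6 and 91.2 CPM to 19.5, 15.7 and 30.5 CPM. The highest depleted value was well under the lowest control value, and the log2 fold change of -1.88 ± 0.26 (adjusted p = 2.2e-05) was called in all alternatives. Unc45b, the chaperone that folds myosin, fell by 1.64 and was called with library 3 alone but not with the covariate (-0.66).

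Calcium handling was the muscle function with the second lowest list median after the synapse list (-0.41), with 14 of 28 genes lower and 4 higher. Casq2, a calsequestrin that stores calcium in the sarcoplasmic reticulum, fell from 149, 151 and 166 CPM to 39.9, 32 and 60.7 CPM (-1.81 ± 0.33, adjusted p = 0.00026). Srl, the calcium-binding protein sarcalumenin, fell from 233, 250 and 261 CPM to 91.0, 85.9 and 135 CPM (-1.25 ± 0.23). Both groups were far apart in these genes, with library 3 nearest to the controls. Kcnn3, a calcium-activated potassium channel, fell by 2.34 at low levels. Trdn, triadin, which anchors calsequestrin to the release channel, went up instead, from 106, 102 and 97.6 CPM to 361, 513 and 146 CPM (1.74 ± 0.37), in the same library order as the reads outside genes. None of these 4 genes was called with library 3 alone or with the covariate. With the covariate the list held 2 lower and 1 higher gene of 28, against 1256 lower and 1449 higher of all 13939 genes. Its median was -0.31 with library 3 alone and -0.26 with the covariate.

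The list of acetylcholine receptor and synapse genes held 9 lower and 2 higher genes of 16 (median -0.46). Musk, the receptor kinase that organises the neuromuscular synapse, fell from 36.7, 42.4 and 40.3 CPM to 8.40, 8.37 and 14.2 CPM (-1.94 ± 0.28, adjusted p = 2.9e-05). Ache, acetylcholinesterase, fell from 3.29, 3.57 and 3.87 CPM to 0.445, 0.496 and 0.742 CPM (-2.66 ± 0.40). Colq, the collagen tail that anchors that enzyme, fell by 1.70. In all 3 genes the groups were clearly apart, and each was called with library 3 alone and with the covariate; 5 genes of the list were lower and 1 higher in each of these.

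Fuel metabolism changed gene by gene. Of 22 muscle energy enzymes, 5 were higher and 6 lower (22.7 and 27.3%, median 0.16), near the shares over all genes. Pfkm, the muscle form of phosphofructokinase, fell from 77.6, 78.4 and 75.5 CPM to 32.9, 29.3 and 40.2 CPM (-1.18 ± 0.12, adjusted p = 4.2e-06), though a predicted gene, Gm26513, overlaps its exons on the same strand. Pygm, muscle glycogen phosphorylase, fell by 0.95, and was called neither with library 3 alone (-0.60) nor with the covariate (-0.22). In the glycolysis list 13 of 25 genes were higher and 4 lower (median 0.38), and 6 higher and 3 lower in each of the 2 further analyses. The list was led by Eno1, an enolase, which rose from 187, 192 and 161 CPM to 501, 534 and 314 CPM. Of 25 fatty acid and PPAR target genes 1 was higher and 7 lower (median -0.09), together 32% against 55.8% of all genes. Cpt1a, the gate for fatty acid entry into mitochondria, was 38.6, 43.1 and 43.4 CPM against 78.5, 78.9 and 71.0 CPM (-0.87 ± 0.09, adjusted p = 4.5e-06).

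Many genes of cell division were higher in the depleted cells. Mki67 (chr7:135689784-135716361, minus strand), which coats mitotic chromosomes, had 173, 144 and 194 CPM in depleted and 81.7, 66.6 and 67.4 CPM in control libraries. The groups did not overlap, and the log2 fold change was 1.25 ± 0.16 (adjusted p = 9.8e-06). It was larger with library 3 alone (1.43) and with the covariate (1.46), and called in both. In control cells Mki67 had dropped by 1.41 on the log2 scale from GM to DM2.

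Of 50 mitosis genes tested, 22 were called higher and 1 lower (44 and 2%, median 0.33). Together 46% were called, under the 55.8% of all genes. The groups did not overlap in 15 of the 50, against 60.3% of all genes. Of 44 G1 and S phase genes 21 were higher and 4 lower (47.7 and 9.1%, median 0.35), and the groups did not overlap in 22. Cenpe, the kinesin that attaches chromosomes to the spindle, rose from 39.3, 30.9 and 33.2 CPM to 83.8, 62.0 and 77.2 CPM (1.11 ± 0.15, adjusted p = 2.0e-05). Birc5, the survivin gene of the chromosomal passenger complex, rose by 0.94 and Cenpa, the centromeric histone H3, by 0.88. Smc4, a condensin subunit, rose by 1.07, a call lost with the covariate (adjusted p = 0.054). Gins2 and Gins1, subunits of the replicative helicase, rose by 0.95 and 0.83, and Prim1, a primase subunit, by 0.77. Apart from Smc4, all of these genes were called under every alternative.

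Depleted library 2 differed from the other 2 here. Its median over the mitosis list lay at -0.14 on the log2 scale relative to control, against 0.47 and 0.61 in libraries 1 and 3. For the G1 and S phase list it lay at -0.02 against 0.35 and 0.45. With library 3 alone 28 mitosis genes were higher and 0 lower, and with the covariate 32 and 0; for G1 and S phase the counts were 21 and 0, and 25 and 0. Cdk1, the mitotic kinase, shows the same at the level of a gene: 129, 76.6 and 133 CPM against 92.1, 86.1 and 92.2 CPM. It was not called (adjusted p = 0.11) but passed without depleted library 2 (0.53, adjusted p = 0.0040) and with the replicate number as a block (adjusted p = 0.027). Top2a, topoisomerase II alpha of dividing cells, rose by 0.65. Ccnb1, cyclin B1, rose by 0.80 but was not called from RSEM counts (0.25, adjusted p = 0.28) or with the covariate (adjusted p = 0.056).

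Not all cell cycle genes rose, and genes of cell cycle arrest moved in both directions. Pcna, the sliding clamp of DNA polymerase, was 30, 17.9 and 50.4 CPM in depleted and 54.6, 59.1 and 63.4 CPM in control libraries (-0.85 ± 0.25, adjusted p = 0.0095). Its value was -0.23 with library 3 alone and 0.10 with the covariate, neither called. Rbl2, the gene of the pocket protein p130 that holds resting cells out of the cycle, fell from 106, 110 and 102 CPM to 41.8, 42.4 and 51.9 CPM (-1.22 ± 0.11, adjusted p = 2.9e-06). Gadd45g, an arrest gene, rose by 0.82. Over the 18 CDK inhibitors and pocket proteins 3 were higher and 5 lower, together 44.4% against 55.8% of all genes.

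**Figure D3:**
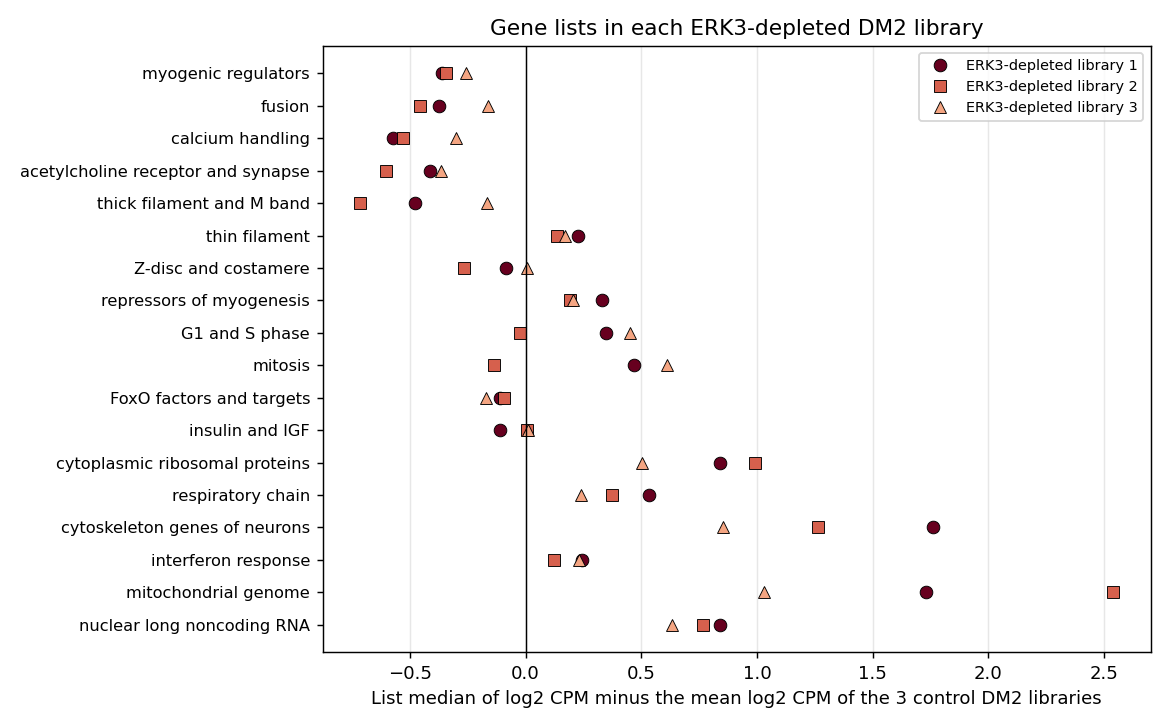
Median over each of 18 gene lists of log2 CPM minus the mean log2 CPM of the 3 control DM2 libraries, for ERK3-depleted libraries 1 (circle), 2 (square) and 3 (triangle). Library 2 sits apart on the mitosis list (-0.14 against 0.47 and 0.61) and on the mitochondrial genome (2.54 against 1.73 and 1.03).

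The series title names FoxO3, and its gene and targets were examined as a group. Foxo3 (chr10:42181841-42276755, minus strand) had 54.8, 47.7 and 58.3 CPM in depleted and 69.3, 72.4 and 66.8 CPM in control libraries, a log2 fold change of -0.37 ± 0.09 (adjusted p = 0.0019). It was not called with library 3 alone (-0.25, adjusted p = 0.13) or with the covariate (-0.17, adjusted p = 0.34). RNA counts carry no information on how long the FoxO3 protein lasts. Of the 39 FoxO factors and targets tested, 16 were lower and 6 higher (41.0 and 15.4%), with a median of -0.05. Together 56.4% of the list were called, near the 55.8% of all genes. With the covariate 10 were lower and 2 higher, against 1256 lower and 1449 higher of all 13939 genes. The list median was -0.18 both with library 3 alone and with the covariate.

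The called targets with the largest changes fell, and their groups did not overlap. Pdk4 (chr6:5483351-5496309, minus strand), the pyruvate dehydrogenase kinase that turns muscle from sugar to fat, had 30.6, 33.6 and 30.8 CPM in depleted and 83.9, 74.5 and 65.8 CPM in control libraries. The 3 depleted values were nearly equal, and the log2 fold change was -1.24 ± 0.12 (adjusted p = 3.1e-06). It was -1.28 with library 3 alone and -1.41 with the covariate, both called. Tob1, an antiproliferative protein, fell from 63.8, 64.4 and 65.1 CPM to 23.1, 18.5 and 34.7 CPM (-1.34 ± 0.16). Sesn3, a stress-induced inhibitor of growth signalling, fell by 0.87, and Trim63, the muscle ubiquitin ligase MuRF1, by 0.86. All 4 were called under both further analyses.

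In the insulin and IGF list 8 of 26 genes were higher and 6 lower (30.8 and 23.1%, median -0.03), near the shares over all genes. Igfbp2, an IGF-binding protein, rose from 676, 439 and 480 CPM to 1557, 1005 and 1230 CPM (1.25 ± 0.16, adjusted p = 1.3e-05).

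Matrix, signalling and stress genes followed. Hspg2, the basement membrane proteoglycan perlecan, rose from 489, 451 and 449 CPM to 1197, 1398 and 1135 CPM (1.43 ± 0.14, adjusted p = 3.9e-06). The small leucine-rich proteoglycans Omd and Aspn fell by 2.28 and 1.55. Cnn1, the smooth muscle calponin, rose from 23.8, 10.9 and 14.2 CPM to 57.0, 30.1 and 67.6 CPM (1.67 ± 0.27), and Nog, the BMP antagonist noggin, rose by 1.86. Dusp4, a phosphatase in the feedback of ERK signalling, fell from 50.9, 59.8 and 54.3 CPM to 14.2, 14.5 and 29.7 CPM (-1.50 ± 0.21). Ddit3, the stress factor CHOP, rose by 1.53 and Fgf21, a muscle stress hormone, fell by 1.45. Of these genes only Fgf21 (both analyses) and Aspn (-1.38, adjusted p = 0.054, with library 3 alone) lost their calls.

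A few interferon and chemokine genes were higher at low levels. Ifit1, an interferon-induced RNA-binding protein, had 8.57, 5.40 and 11.6 CPM in depleted and 2.22, 1.44 and 1.82 CPM in control libraries (2.22 ± 0.37, adjusted p = 9.7e-05). Isg15, a ubiquitin-like modifier, rose by 1.3 and the chemokine gene Ccl5 by 2.54. The interferon list as a whole had 9 of 33 genes higher and 4 lower, together 39.4% against 55.8% of all genes. Of the cytokine list 12 of 31 genes were lower and 4 higher (median -0.32). Hgf, a growth factor that wakes satellite cells, fell from 9.86, 17.1 and 13.2 CPM to 1.22, 1.92 and 3.25 CPM (-2.65 ± 0.37). A predicted gene, Gm43489, overlaps its exons on the same strand.

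Genes of the neuronal cytoskeleton formed one of the lists with the highest medians, with 9 of 14 genes higher and 0 lower (median 1.41). The gene lists were chosen with earlier results of these data known, so the high median of this one is no separate evidence of a rise. Of its 20 listed genes 6 were not tested. Nefl, the light neurofilament chain, had 35.8, 12.3 and 45.8 CPM in depleted and 8.89, 1.99 and 1.34 CPM in control libraries (2.95 ± 0.66, adjusted p = 0.0016). Control library 1 stood above the other controls, and library 1 was high in both groups. Nefm, the medium chain, rose by 2.79 and the growth cone protein gene Gap43 by 2.54. Library 3 alone gave 5 list genes higher and 0 lower, the covariate 5 higher and 1 lower, and the replicate number as a block 9 higher and 1 lower. Stmn4, a tubulin-binding stathmin outside this list, rose by 2.97. All 4 named genes were called with library 3 alone and with the covariate. The neuron markers Snap25 and Gad1 were at 0 in all 6 libraries, and the neuron marker list summed to 162 to 243 CPM against 76.3 to 138 CPM.

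Markers of 3 other cell types were low. Epithelial markers summed to at most 29.3 CPM, macrophage markers to at most 12.1 CPM and endothelial markers to at most 3.31 CPM in any of the 6 libraries. The macrophage markers Adgre1, Tyrobp, C1qa and C1qb were at 0 throughout. Adipocyte markers summed to 122.7 to 277.8 CPM in depleted and 141.7 to 178.5 CPM in control libraries, with Car3, Cebpa and Pparg the most abundant of the list and Plin1, Cidec, Cfd, Lep and Retn at 0 in all 6. Fibroblast markers, which myoblasts share in part, summed to 698 to 790 CPM against 785 to 832 CPM. Smooth muscle markers, which include genes expressed in myoblasts, summed to 8947 to 9636 CPM against 8231 to 8911 CPM. Bone and cartilage markers summed to 129 to 193 CPM against 89.0 to 94.2 CPM, with Ibsp, Acan and Chad at 0 in all 6. The part of such cells or genes in the results was not tested.

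Nuclear RNAs led the 12 genes picked for the strongest rises. These picks were limited to called genes whose higher group averaged 5 CPM or more and whose groups did not overlap, and over all tested genes log2 fold changes ran from -6.36 to 8.95. Malat1 (chr19:5795690-5802672, minus strand), a long noncoding RNA of nuclear speckles, had 6580, 12664 and 1702 CPM in depleted and 150.0, 151.7 and 137.1 CPM in control libraries (5.58 ± 0.78, adjusted p = 4.3e-05). The depleted libraries lay in the order 2, 1, 3, as did their reads outside genes. Kcnq1ot1, an imprinted antisense RNA that stays at its locus, rose by 5.05 and Neat1, the scaffold of paraspeckles, by 3.02 in the same order. Of 14 nuclear long noncoding RNAs 10 were higher and 2 lower (median 0.78). Malat1 and Kcnq1ot1 were called with library 3 alone and with the covariate, and Neat1 with neither. Hoxc8, a homeobox gene also among those 12, was at 11, 24.8 and 2.2 CPM against 0.918, 0.464 and 0.526 CPM, and was not called in these 2 analyses either.

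Mitochondrial and ribosomal transcripts rose as groups. All 9 genes tested from the mitochondrial genome were higher (median 1.94), such as mt-Rnr2, the large ribosomal RNA, with 7361, 11031 and 3665 CPM against 1573, 1506 and 1722 CPM. With library 3 alone the median was 1.01 and none of the 9 was called, and with the covariate it was 0.55 and again none. The smaller mt-Rnr1 had a log2 fold change of 2.10 with all libraries and 1.0 with library 3 alone. Of 44 cytoplasmic ribosomal protein genes 40 were higher and 0 lower (median 0.78), and 29 and 26 were higher, with 0 lower, in the 2 further analyses. Rpsa, of the small subunit, rose from 188, 209 and 212 CPM to 593, 665 and 349 CPM (1.40 ± 0.16). Of 40 respiratory chain genes encoded in the nucleus 27 were higher and 4 lower (median 0.39), led among named genes by Uqcrq, a complex III subunit (1.40 ± 0.15). The counts were 15 and 2 with library 3 alone, 16 and 2 with the covariate, and 19 and 7 (median 0.09) with the trend over gene length and GC content removed.

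The direction of change followed gene length in every depleted library. Among the 1392 genes with the shortest exons (median 888 bases), 52.2% were called higher and 8.33% lower, with a median log2 fold change of 0.63. Among the 1392 with the longest (median 12088.5 bases), 16.8% were higher and 44.2% lower, with a median of -0.23. Genes called higher had a median exon length of 2798.5 bases and genes called lower 5779.5 bases. Over the shortest genes the single depleted libraries 1, 2 and 3 lay at 0.71, 0.73 and 0.36 on the log2 scale over control, and control libraries 1, 2 and 3 at 0.0037, -0.0069 and 0.017. With each library's trend over length and GC content removed, 7294 genes were called (3956 higher, 3338 lower), of which 5902 were among the 7776 and in the same direction. The counts for mitosis were then 25 higher and 0 lower, for fusion 2 and 12, and for calcium handling 3 and 13. Of 43 lists, however, the median of 17 moved by more than the spread between the depleted libraries, and that of 5 changed sign. The median of muscle energy enzymes went from 0.16 to -0.15 and that of sarcomere assembly factors from -0.07 to -0.48, with 2 higher and 8 lower. The part of the length trend in the single results was not tested beyond these counts.

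**Figure D4:**
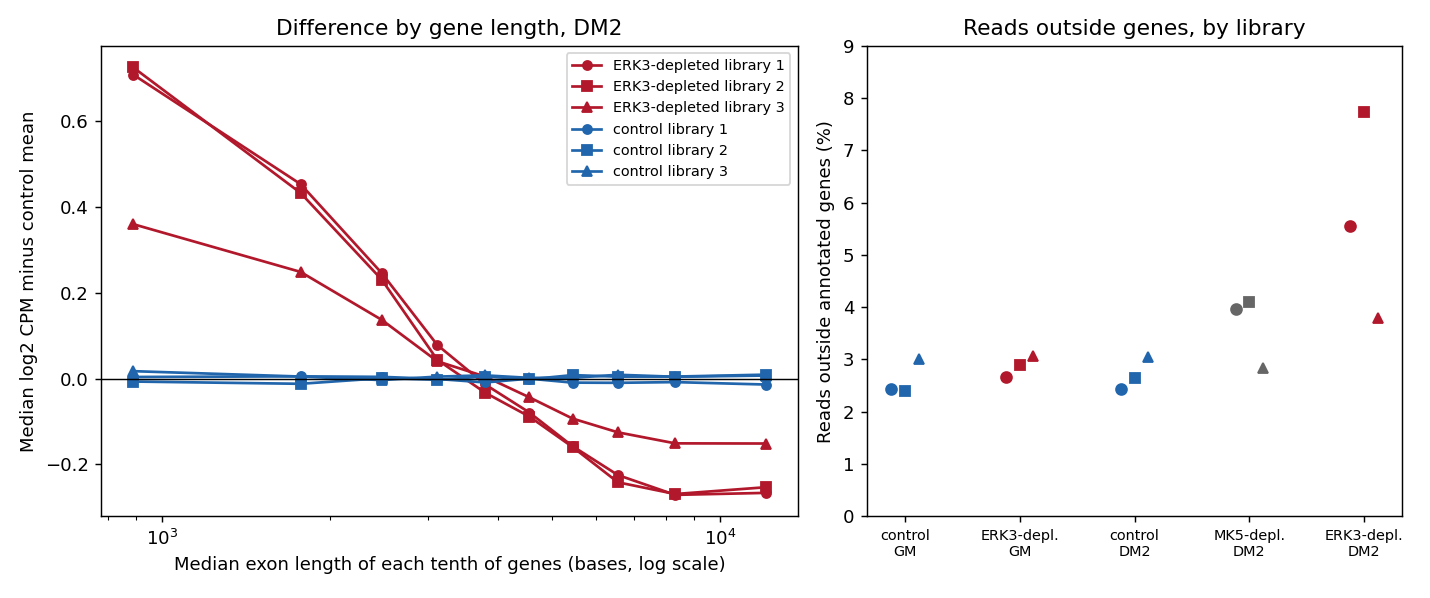
Left, median log2 CPM minus the control mean for 10 equal bins of genes by exon length (log axis, bases) in each DM2 library, ERK3-depleted in red and control in blue. Right, percent of reads that matched no gene's exons, called reads outside genes, in each library of 5 groups. Depleted libraries 1, 2 and 3 go from 0.71, 0.73 and 0.36 in the shortest bin to -0.27, -0.25 and -0.15 in the longest, and the 3 depleted DM2 libraries hold 5.55, 7.73 and 3.79% of reads outside genes.

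Under the same limits, the 12 genes picked for the strongest falls included transport and membrane genes. Slc8a1, the sodium-calcium exchanger, had 0.779, 1.74 and 4.51 CPM in depleted and 19, 21.6 and 23.0 CPM in control libraries (-3.17 ± 0.41, adjusted p = 1.1e-05). Atp7a, a copper pump, fell by 3.08, Sntb1, a syntrophin of the dystrophin complex, by 2.96 and Masp1, a complement protease, by 2.92. In these 4 genes depleted library 3 was the highest of the depleted libraries, and each gene was called with library 3 alone and with the covariate.

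More genes were called at DM2 than in GM, where 946 genes differed between ERK3-depleted and control cells. Depleted GM libraries held 2.67 to 3.07% of reads outside genes. The change of the difference between media was tested directly as an interaction, and 3983 of 13939 genes (28.6%) were called, 2033 upward and 1950 downward at DM2. That count fell to 2556 without depleted DM2 library 1, to 2459 without depleted DM2 library 2 and to 2537 without depleted GM library 3. With DM2 library 3 alone it was 155, and with the covariate 200. Mymk differed by -1.86 at DM2 and 0.57 in GM (difference -2.42 ± 0.62, adjusted p = 0.012). Mki67 differed by 1.25 and 0.25 (difference 0.99 ± 0.22, adjusted p = 0.0053), and Pdk4 by -1.24 and -0.22 (difference -1.02 ± 0.17, adjusted p = 0.0018). Mapk6 itself differed by -0.86 at DM2 and by -0.15 in GM (difference -0.70 ± 0.17, adjusted p = 0.0079). Msc differed by 2.78 at DM2 and 2.46 in GM (difference 0.32, adjusted p = 0.76), and Foxo3 by -0.37 and -0.34 (difference -0.04, adjusted p = 0.86), though a missed threshold does not show that the differences are equal.

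Among gene lists, 30 of 44 ribosomal protein genes and all 9 mitochondrial genome genes had a larger positive difference at DM2 than in GM. For thick filament genes 10 of 22 had a more negative difference at DM2 and 0 a more positive one. The median log2 fold change of this list was 0.74 in GM, with 0 genes called, and -0.36 at DM2. A large part of its interaction thus lies in higher values of depleted cells in GM. For mitosis genes the interaction was called upward in 3 and downward in 0 of 50, with a median of -0.06. For G1 and S phase genes it was called upward in 4 and downward in 9 of 44 (median -0.23), and 26 of these 44 were already higher in depleted cells in GM (median 0.48).

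ERK3-depleted and MK5-depleted cells were also compared with each other at DM2. No gene of 13939 was called by edgeR (0%), with 2741 at an unadjusted p under 0.05 and a smallest adjusted p of 0.056. DESeq2 called 184 genes, edgeR with the replicate number as a block 368, and edgeR without the filter on low counts 1331. Without ERK3-depleted library 3 the count was 3597, so it turns on that library. Each line was compared with the same 3 control libraries, so their differences from control are not independent. For Mymk these differences were -1.86 in ERK3-depleted and -1.28 in MK5-depleted cells, for Mki67 1.25 and 1.43, for Pdk4 -1.24 and -1.43, and for Malat1 5.58 and 3.67. Reads outside genes made up 3.96, 4.11 and 2.84% in the 3 MK5-depleted DM2 libraries.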

How the data were processed

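Poly-A selected, stranded RNA-seq libraries of C2C12 lines were used, grouped by their labels. The deposited raw counts per gene were made by the authors with bcl2fastq 2.17 and STAR 2.5.1b on GRCm38, per the submitters' processing notes, and the reverse-strand column was analysed because 92.8 to 95.3% of stranded gene counts fall there. RSEM 1.2.28 gave the authors' expected counts and the deposited TPM, as the file headers and the submitters' notes show. Expected counts were rounded and served as an alternative, and TPM were not used in a test. Reads given in the summary lines of the files, which hold reads outside genes as well as unmapped, multimapping and ambiguous reads (together 21.7 to 35.8% of reads) stayed out of library sizes. Of 50600 gene identifiers 50376 matched GENCODE M21, which gave symbols and positions.

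Genes passing filterByExpr (13939) were fitted in edgeR 4.0.16 (R 4.3.3) with TMM scaling, robust quasi-likelihood fits and 1 mean for each of the 6 groups over all 18 libraries (12 residual degrees of freedom), which share 1 estimate of the spread. P-values were adjusted by Benjamini-Hochberg over all genes tested, and called under 0.05. CPM use TMM-scaled library sizes. The prior count for log2 CPM was 2. Scripts were tested on simulated data. Tables and figures were made with Python 3.11.15, pandas 2.3.3 and matplotlib 3.10.9.

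Replicate numbers of the titles were checked for pairing at DM2. Correlations of deviations from group means across genes were 0.20, 0.15 and 0.11 for same-numbered libraries and -0.16 to -0.03 for others. Deviations within a group cancel out, so the negative values are not separate evidence. Same-numbered libraries were thus weakly alike, and the labels state no pairing. The reported p-values come from the fit without a block, and the replicate block is an alternative.

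The members, the 51 gene lists and the alternatives were chosen with earlier results of these data known. Genes are named by rule: Mapk6, Mapkapk5, Foxo3, Mymk, Mki67 and Pdk4, the cell type markers, the called genes that changed most in each list (at most 5 in muscle, cell cycle and FoxO lists, at most 3 in others), and the 12 rising and 12 falling most whose higher group averaged 5 CPM or more and whose groups did not overlap, without clone and predicted-gene names. List members needed 1 CPM in the higher group. Named genes that repeat a pattern were left out, and others picked by the rule are not reported here. Alternatives were RLE size factors, DESeq2 1.42.0, no filter, a filter of 1 CPM, a fit to the contrast's own libraries, the replicate block, RSEM counts, unstranded counts, removal of length and GC trends (splines with 5 degrees of freedom), the covariate, and libraries left out. Promoter motifs searched were the E-boxes CAGCTG and CANNTG, the TEAD site CATTCC, the NF-Y site CCAAT, the CHR site TTTGAA, the E2F sites TTGGCGC and TTCCCGC, the FoxO site TGTTTAC, and the MEF2 and CArG sites. Promoters came from RefSeq and matched 10133 tested genes by symbol.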

Additional observations from a re-analysis of the deposited data

Results flagged for a closer look

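The difference between ERK3-depleted and control cells changed between growth medium and DM2 in 60 of the 97 genes described above. The measure was the interaction term of the edgeR model (adjusted p under 0.05, log2 scale, difference at DM2 minus difference in GM). Most of these genes were picked for a large difference at DM2, which is part of that term. A high share called among them is therefore partly built in. Over all 13939 genes 28.6% were called. A positive value means that the depleted cells stood higher against control at DM2 than in GM. A negative value can come from a higher difference in GM as well as from a lower one at DM2. Myog differed by 1.06 in GM and -0.66 at DM2, Myh3 by 1.25 and -0.63, and Acta1 by 0.81 and -0.60. Myod1 differed by 0.66 and -0.12, and Id2 by 0.76 and -0.51. Others differed mainly at DM2, such as Musk (0.13 in GM and -1.94 at DM2).

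Among muscle genes the value was -2.42 for Mymk, -2.87 for Tmem182, -1.72 for Myog, -0.78 for Myod1, -1.38 for Ckm, -1.88 for Myh3, -1.42 for Acta1, -2.21 for Actc1, -2.98 for Lmod2, -2.22 for Mybpc1, -1.26 for Myom1, -2.39 for Klhl41, -2.07 for Unc45b, -2.75 for Casq2, -1.59 for Srl, -3.87 for Kcnn3, -2.08 for Musk, -1.25 for Tead4, -0.79 for Mef2d, -1.45 for Rbm24 and -1.03 for Pfkm. Among cell cycle genes the value was 0.99 for Mki67, 0.87 for Cenpe, 0.78 for Smc4, 0.43 for Gins1, 0.41 for Gins2, -1.33 for Pcna, -1.08 for Rbl2 and 0.68 for Gadd45g. Among kinase, FoxO and fuel genes the value was -0.70 for Mapk6, 0.75 for Mapk11, 0.92 for Mapk12, 0.72 for Hspb1, -1.03 for Tob1, -1.02 for Pdk4, -0.36 for Cpt1a and -1.30 for Dusp4. Among repressors of myogenesis the value was -1.27 for Id2 and -0.83 for Bhlhe40. Among matrix, stress, interferon and cytokine genes the value was 1.55 for Hspg2, 1.58 for Cnn1, 1.15 for Ddit3, -1.89 for Fgf21, 2.90 for Ifit1, 1.49 for Isg15, 3.26 for Ccl5 and -1.80 for Hgf. Among nuclear, mitochondrial, ribosomal and other genes the value was -2.72 for Atp7a, 0.98 for Eno1, 3.83 for Hoxc8, 5.03 for Kcnq1ot1, 4.88 for Malat1, -2.10 for Masp1, 2.96 for Neat1, 1.29 for Rpsa, -2.56 for Slc8a1, -3.13 for Sntb1, 0.85 for Uqcrq, 2.13 for mt-Rnr1 and 2.72 for mt-Rnr2. The count of such genes over all 13939 was 3983, and 155 when depleted DM2 libraries 1 and 2 were left out or 200 with the covariate.

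Reads outside genes, meaning those that match no gene's exons, belong to no gene's count and enter the fits only as the covariate. The depleted DM2 library with the fewest of them had 3.79%, above the highest control DM2 library at 3.05%. Their part in the differences between the groups was not tested.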

How the results depend on the processing

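Over the alternatives, the count of genes called at DM2 (7776) stayed within 1.5 times except with depleted libraries 1 and 2 left out (3257 genes, 1698 higher and 1559 lower) and with the percentage of reads outside genes as covariate (2705, 1449 higher and 1256 lower). The first rests on 1 library and the second on a measure that differs between the groups. Leaving out 1 library gave 6493 to 8473 genes (3336 to 4179 higher, 3099 to 4294 lower). The interaction count (3983) became 155 and 200 in those same analyses and 2459 to 5835 with 1 library left out. ERK3-depleted against MK5-depleted cells (0 called) gave 184 genes in DESeq2, 1331 without a filter, 903 with the length and GC trend removed and the replicate block, and 0 to 3597 with 1 library left out; the cause was not tested.

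The replicate block gave 8286 genes at DM2, 4929 for the interaction and 368 for ERK3-depleted against MK5-depleted cells. Of the 97 genes described, it changed no call other than those of Acta1 and Cdk1. Of the same 97 genes, 23 lost their call with library 3 alone and 27 with the covariate, besides Ckm and Pcna, which lost theirs and also turned sign. Signs turned with the covariate for Ckm (0.063), Myh3 (0.24), Mymx (0.28), Myog (0.027) and Pcna (0.10), with RSEM counts for Mapkapk5 (0.30), and without the length and GC trend for Ttn (-0.0070, and -0.0018 with the replicate block). Mymx (-0.02, not called) also turned with library 3 alone (0.14) and without control library 2 (0.042), depleted library 1 (0.0039) or depleted library 2 (0.034), and lay at -0.13 without depleted library 3. The causes were not tested. At 17.9 to 21.3 M counts per library (M, 1e6), values under 1 CPM, such as those of Ache in the depleted libraries, rest on few reads.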
